A study of Homo sapiens with 14 samples.

Results

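SGK1, TSC22D3, KLF9, DUSP1, ERRFI1, NFKBIA and F3 are early steroid-response genes known from both the progesterone receptor (PR) and the glucocorticoid receptor. They are 7 of the 19821 protein-coding genes on chromosomes 1 to 22 and X that were examined. They were chosen by name, and every PR or POLR3A region that reached the RefSeq gene span or the 50 kb on either side was taken as a member region. The regions came from chromatin immunoprecipitation sequencing (ChIP-seq) of T47D, an established oestrogen- and progesterone-receptor-positive breast cancer line. Cells were given the ethanol vehicle for 1 h or progesterone (P4) for 1 h, and the sources used here give no P4 dose. All groups shared a medium with fetal bovine serum, and the labels name no step that removed its steroids. One antibody recognised PR and the other POLR3A, the catalytic subunit with which RNA polymerase III makes RNA, with 3 replicate libraries for each antibody and treatment among 14 libraries in all. The 2 others were pooled inputs, 1 for each treatment. Each group has 1 peak list, so a region or a count has no spread between replicates and differences between lists were not tested. The lists measure where an antibody enriched chromatin and hold no measure of RNA.

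PR and the glucocorticoid receptor belong to the same subfamily of steroid receptors. On binding hormone they attach as dimers to closely related DNA elements, an inverted repeat with a short spacer, often far from the start of the gene they act on. Many genes that glucocorticoids induce within an hour are also induced by progestins in breast cells, and several of them feed back on signalling. DUSP1, ERRFI1 and NFKBIA encode inhibitors of mitogen-activated protein kinases, of epidermal growth factor receptors and of NF-κB. RNA polymerase III makes transfer RNAs and other short RNAs, while the 7 genes are transcribed by RNA polymerase II.

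Of the 7 genes, TSC22D3 and NFKBIA had a PR region under P4 over the 250 bases just before an annotated start. Those bases are shown for that reason. This was 1 window of each gene among the 12 windows of the 7 genes, and under vehicle PR reached none of the 12. For scale, PR regions reached 21.6% of all 22132 such windows of protein-coding genes under P4 and 6.90% under vehicle. A second TSC22D3 start, which had no region of any list over its window, is shown because it holds the only match of the members to the core of the receptor element. The TSC22D3 start called inner here is at 107717062 and the one called outer is at 107775787. Neither is the outermost of its side, since the other annotated starts are at 107716508 and, farthest upstream, 107775988. The sequences are those of RefSeq, build GRCh38.p14, minus strand, 5′ to 3′, each ending at the base before the start. Capitals mark the matches described next.
TSC22D3, inner start, chrX:107717063-107717312: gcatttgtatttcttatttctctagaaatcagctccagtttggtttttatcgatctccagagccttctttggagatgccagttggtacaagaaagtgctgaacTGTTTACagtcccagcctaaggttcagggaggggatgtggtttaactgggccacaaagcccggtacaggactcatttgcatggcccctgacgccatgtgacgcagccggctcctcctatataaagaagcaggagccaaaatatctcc
TSC22D3, outer start, chrX:107775788-107776037: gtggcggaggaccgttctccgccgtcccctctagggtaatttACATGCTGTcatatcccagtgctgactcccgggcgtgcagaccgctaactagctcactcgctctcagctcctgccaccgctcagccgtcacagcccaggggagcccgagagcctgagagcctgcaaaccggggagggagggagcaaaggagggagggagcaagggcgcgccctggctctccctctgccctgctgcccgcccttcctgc
NFKBIA, chr14:35404750-35404999: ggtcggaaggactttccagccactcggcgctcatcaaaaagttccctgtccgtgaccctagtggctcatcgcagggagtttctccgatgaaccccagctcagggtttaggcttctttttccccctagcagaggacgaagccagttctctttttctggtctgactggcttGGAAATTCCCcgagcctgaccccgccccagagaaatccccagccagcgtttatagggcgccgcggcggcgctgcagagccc

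The 7 genes have 12 annotated starts in the sequence table, and the 250 bases before each were searched on both strands. The core of the receptor element, ACANNNTGT, which reads the same on both strands, was in 1 of the 12 windows, the outer TSC22D3 start, and in 3.43% of 22132 such windows of protein-coding genes. The full element, which holds this core with its outer G and C, was in none of the 12 and in 0.253% of all windows, and the half-site AGAACA, which can overlap it, was in none of the 12 and in 9.83% of all. The forkhead motif TGTTTAC, whose TGT can also be that of the core, was in the inner TSC22D3 window and in 2.45% of all windows. It began 147 bases before the start, and the summit of the PR region lay 126 bases before it. The κB motif, bound by NF-κB, was in the NFKBIA window and in 11.3% of all windows, and it began 81 bases before the start. The NFKBIA promoter is known for such sites, through which NF-κB induces its own inhibitor. The last 2 motifs were added after the sequences had been seen, and a match describes letters only.

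All 7 genes had PR regions within 50 kb in both lists. Of all protein-coding genes, 74.6% had one under vehicle and 90.5% under P4. Each of the 7 had more PR regions under P4 than under vehicle, as had 87.2% of all protein-coding genes, while 0.762% had fewer. PR regions overlapped 2 of the 7 genes themselves in the vehicle list and 4 in the P4 list, against 39.1% and 65.7% of all genes, and POLR3A regions 2 and 3, against 39.1% and 43.8%. Together the loci held 30 PR regions under vehicle and 65 under P4, a ratio of 2.17, against 2.86 for the whole lists of 38933 and 111515 regions. NFKBIA held 13 and 28 of them. Without NFKBIA the other 6 loci held 17 and 37. With the P4 list cut to the length of the vehicle list by −log10 q, NFKBIA held 8 PR regions under P4. POLR3A regions were fewer, 14 under vehicle and 26 under P4. The ratio was 1.86, against 1.64 for the whole lists of 29161 and 47904 regions. NFKBIA held 8 and 17 of the POLR3A regions, and the other 6 loci held 6 and 9. With the POLR3A P4 list cut to the length of its vehicle list, the 7 loci held 18 under P4.

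**Figure D1:**
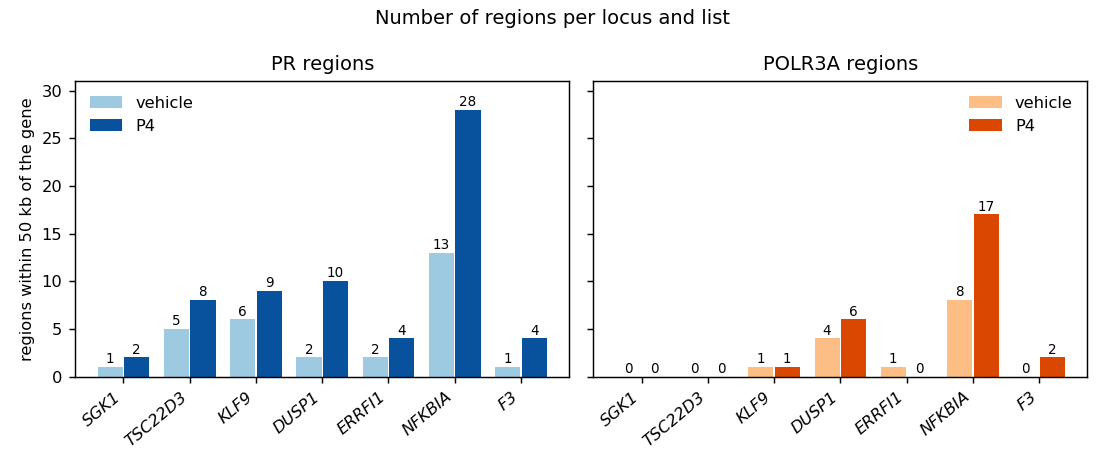
Number of regions within 50 kb of each gene (vertical axis) in the PR lists (left) and the POLR3A lists (right), with light bars for vehicle and dark bars for P4. NFKBIA holds 28 PR regions and 17 POLR3A regions under P4, while SGK1 and TSC22D3 hold no POLR3A region in either list.

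Window length differs between the genes, so regions were also counted per 100 kb of window. Under P4 the median over the 7 genes was 4.92 PR regions per 100 kb, and over all protein-coding genes it was 5.28. Under vehicle the medians were 1.94 and 1.51. For POLR3A the members' median was 0.769 under both treatments, against 0.971 and 1.72 over all genes. NFKBIA lay above 95% of protein-coding genes in both PR lists and in the POLR3A P4 list, with 12.6 and 27.1 PR regions and 16.5 POLR3A regions per 100 kb. SGK1, at 0.804 PR regions per 100 kb under P4, lay at percentile 14.1 of all genes.

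**Figure D2:**
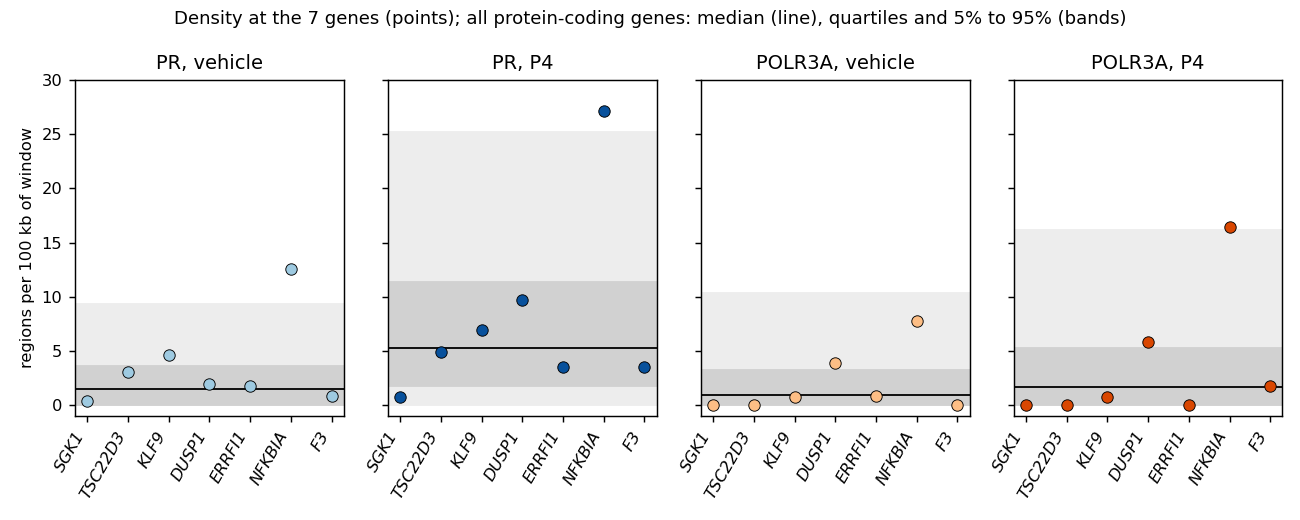
Regions per 100 kb of window (vertical axis) for each of the 7 genes, as points, in each of the 4 lists. The line is the median of all protein-coding genes, the dark band their quartiles and the light band their 5% to 95% range; NFKBIA, at 27.1, is the only gene above the light band in the PR P4 list.

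At each of the 7 loci the strongest PR region of the P4 list, by −log10 q, overlapped the strongest PR region of the vehicle list. The same was so for 66.8% of the 14711 protein-coding genes with PR regions in both lists. The summits of these pairs lay 3 to 33 bp apart. The −log10 q and the fold enrichment are the authors' values, and the percentile used here places a region within its own list by −log10 q. The lists differ in length, so percentiles under vehicle and P4 do not show a change at a site. The strongest region was above percentile 90 at 5 of the 7 loci under P4 and at 3 under vehicle, against 52.3% and 28.9% of the genes with a region. The strongest P4 regions lay upstream of KLF9, DUSP1 and F3, past the 3′ end of SGK1, TSC22D3 and ERRFI1, and within NFKBIA. All 7 genes lie on the minus strand. The map of regions by distance from the start shows these places. Over the whole lists, 75.7% of vehicle PR regions overlapped a P4 region, and 25.8% of P4 regions a vehicle region. The counterparts counted below at each gene stand beside these shares.

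**Figure D3:**
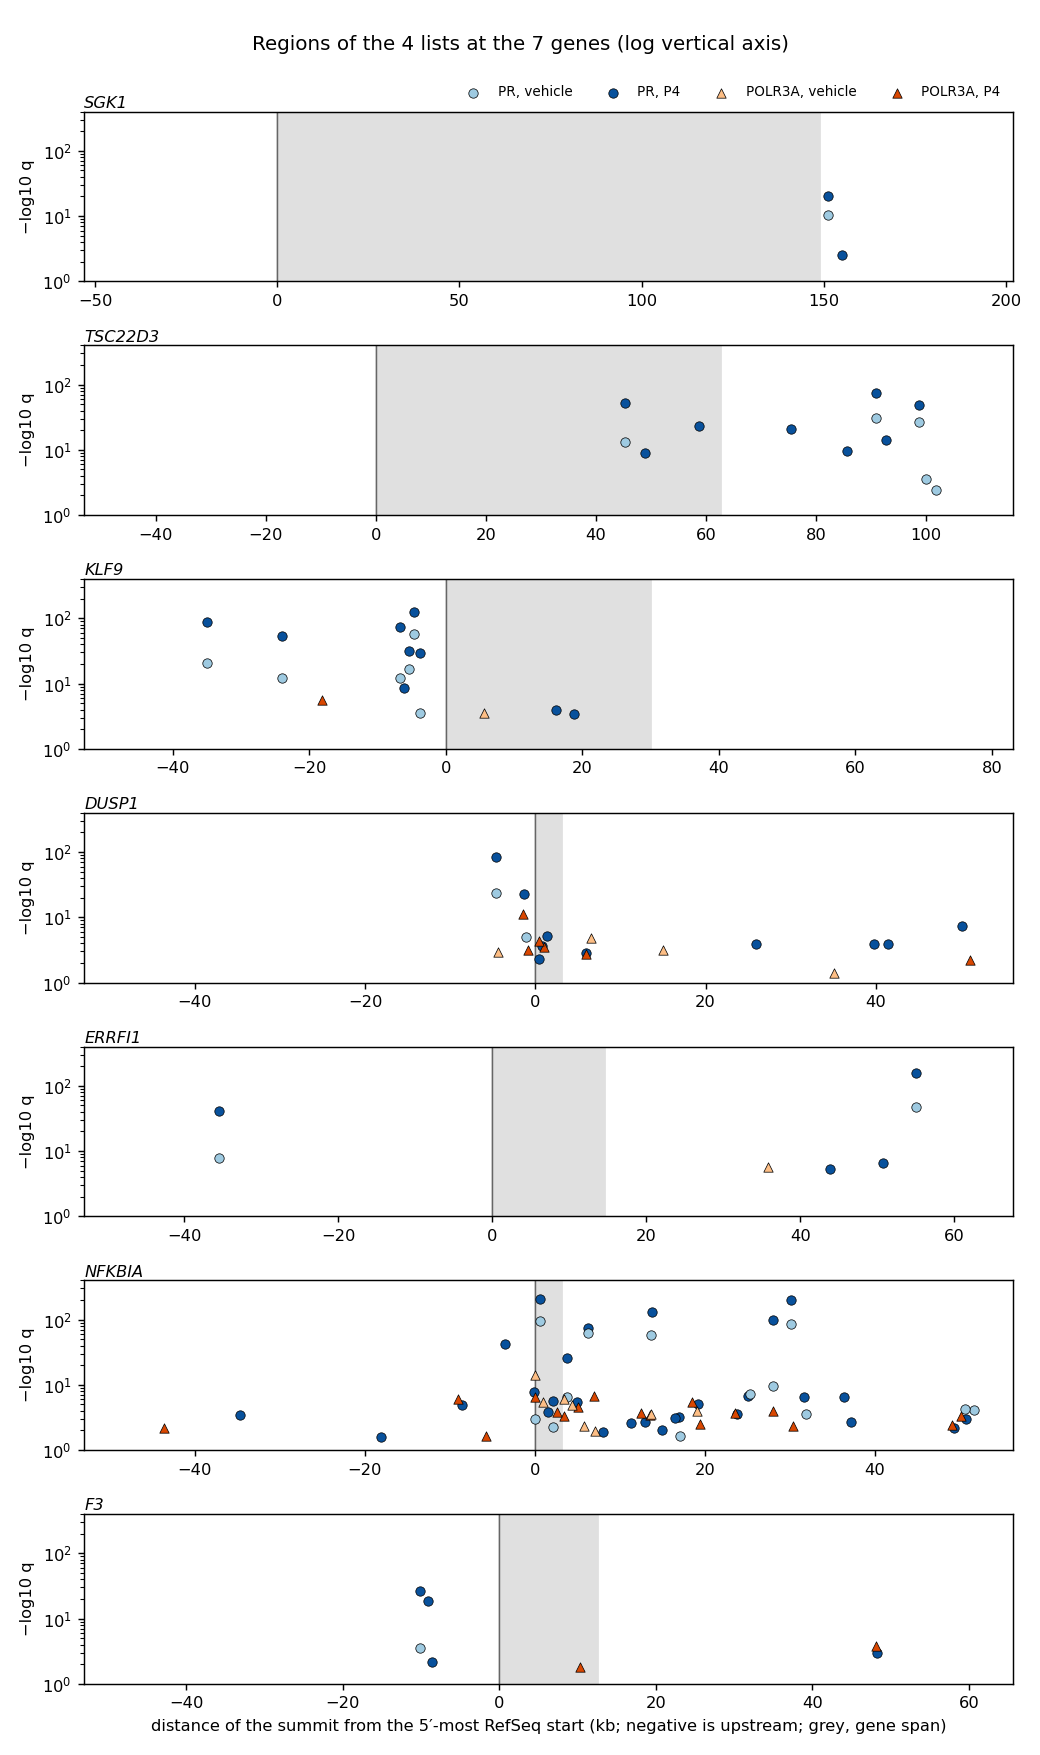
Each region of the 4 lists at its summit's distance in kb from the start farthest upstream (horizontal axis; negative is upstream, grey is the gene span) and at its −log10 q (vertical axis, log scale). PR regions are circles and POLR3A regions triangles, light for vehicle and dark for P4; the highest circle is the region within NFKBIA at 204.0 under P4, and no triangle rises above 14.1.

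SGK1 encodes serum- and glucocorticoid-regulated kinase, which acts on ion channels and cell survival downstream of phosphoinositide signalling. The gene spans chromosome 6, 134169256 to 134318112, and has 3 starts in the table. No region of any list overlapped that span. Its single PR region under vehicle (134166873 to 134167101) had a −log10 q of 10.4 and a fold enrichment of 5.75. The P4 list held a region at the same place (134166750 to 134167095, −log10 q 20.5, fold 7.76), with its summit 2.29 kb past the 3′ end and 7.90 kb from the nearest start. These stood at percentiles 69.0 and 83.5 of their lists, and at ranks 12135 and 18462 from the top. A weaker P4 region (134163055 to 134163266, −log10 q 2.56) had no vehicle counterpart. The SGK1 window holds the only 2 genes of RNA polymerase III type in the 7 windows, the pseudogenes RN7SL408P and RNA5SP218, and neither had a POLR3A region within 100 bp.

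TSC22D3 encodes the glucocorticoid-induced leucine zipper, a regulator that dampens inflammatory transcription, and spans chromosome X, 107713221 to 107775988, with 4 starts. It had 5 PR regions under vehicle and 8 under P4, 3 of them in both lists, and no POLR3A region. The strongest lay 28.2 kb past the 3′ end (107684822 to 107685361, −log10 q 74.99, percentile 94.5 under P4; 107684886 to 107685196, −log10 q 30.4, percentile 87.0 under vehicle). A second pair lay 36.0 kb past the end, at 27.1 in the vehicle list and 48.2 in the P4 list. The third pair was within the gene (107730482 to 107730854 under P4), 13.6 kb upstream of the inner start, with values of 13.0 and 51.8. The other 5 P4 regions overlapped no vehicle region, and one of them (107717058 to 107717440, −log10 q 23.5, fold 8.39, percentile 85.0) covered the inner start, whose upstream bases are printed above. The other 4 had −log10 q of 20.5, 14.0, 9.72 and 8.92, the last of them within the gene. No region of the vehicle list was within 10 kb of a TSC22D3 start. NCBP2L and MID2 also lie in the window, but every one of these summits was nearer to a TSC22D3 start than to any other protein-coding start.

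KLF9 encodes a Krüppel-like zinc-finger transcription factor that is induced by several hormones and limits proliferation in many cell types. It spans chromosome 9, 70384604 to 70414657. All 6 PR regions of the vehicle list had a counterpart among the 9 of the P4 list, against 75.7% of all vehicle PR regions. All 6 lay upstream, within the span of the non-coding gene KLF9-DT. A cluster of 4 pairs stood 3.80 to 6.72 kb before the start. The strongest of them (70418912 to 70419650, −log10 q 123.0, fold 23.8, percentile 96.7 under P4) had a vehicle region at −log10 q 58.3, percentile 93.1. The other 3 pairs of this cluster stood at 3.59, 16.8 and 12.2 in the vehicle list and at 29.8, 31.7 and 73.7 in the P4 list. Another 2 pairs lay 24.0 and 35.0 kb upstream, at 12.2 and 20.8 under vehicle and 53.1 and 87.2 under P4. Of the 3 regions found under P4 alone, 1 fell inside the upstream cluster (−log10 q 8.40) and 2 within the gene (3.96 and 3.36). POLR3A had 1 region in each list, at different places, at −log10 q 3.53 within the gene in the vehicle list and 5.63 in the P4 list, 18.2 kb upstream. No region overlapped the 250 bases before the KLF9 start.

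DUSP1 encodes a phosphatase that switches off mitogen-activated protein kinases. It spans 3.10 kb on chromosome 5, 172768096 to 172771195, and no other protein-coding gene lies in its window. The vehicle list held 2 PR regions and the P4 list 10, among them counterparts of both. The strongest lay 4.56 kb upstream (172775263 to 172775942, −log10 q 84.9, fold 18.4, percentile 95.1 under P4; 172775118 to 172775959, −log10 q 23.9, percentile 84.1 under vehicle). Nearer the start, 1.33 kb upstream, a P4 region (172772192 to 172772822, −log10 q 22.5) overlapped a vehicle region with −log10 q 4.90, and both of these sites fall in the non-coding gene LOC105377730. Their summits were 288 bp apart, the widest gap of any pair at the 7 loci. The other 8 P4 regions ranged from a −log10 q of 2.30 to 7.39. Among them, 3 were within the gene, with summits 0.402, 0.815 and 1.41 kb from the start and −log10 q of 2.30, 3.63 and 5.25.

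None of the 4 POLR3A vehicle regions at DUSP1 overlapped any of the 6 P4 regions, and over the whole lists most POLR3A regions had no counterpart either (42.0% of the vehicle and 25.8% of the P4 regions had one). Under P4, 5 of the 6 overlapped a PR region of the P4 list, against 50.5% of all POLR3A P4 regions, and the strongest (172772484 to 172772766, −log10 q 11.2, percentile 95.4) lay in the PR region 1.33 kb upstream. The 2 within the gene were at 0.451 and 1.07 kb from the start, with −log10 q of 4.31 and 3.53, and 1 more was 0.868 kb upstream, with −log10 q of 3.17. Under vehicle the nearest POLR3A region to the start was 4.40 kb upstream, with −log10 q of 2.93, inside the strongest PR region.

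ERRFI1 encodes an inhibitor that binds the kinase domain of epidermal growth factor receptors and spans chromosome 1, 8011727 to 8026309. No PR or POLR3A region overlapped the gene. Its 2 vehicle PR regions both had counterparts among the 4 P4 regions. The strongest (7971058 to 7971567, −log10 q 154.6, fold 28.0, percentile 97.6 under P4; 7971105 to 7971612, −log10 q 46.9, percentile 91.3 under vehicle) lay 40.4 kb past the 3′ end, within the span of PARK7. PARK7 encodes a protein that protects against oxidative stress, and its start is the nearest protein-coding start to that summit, so the site cannot be assigned to ERRFI1 by distance. The other pair lay 35.5 kb upstream in ERRFI1-DT (8061698 to 8062005 under P4), at −log10 q 7.92 in the vehicle list and 41.1 in the P4 list. The 2 regions found under P4 alone were also within PARK7, at 6.65 and 5.25. POLR3A had 1 region, under vehicle alone, with −log10 q of 5.79 and its summit 21.3 kb past the 3′ end. The PARK7 start is also the nearest protein-coding start to that summit, so this region cannot be assigned to ERRFI1 by distance either.

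NFKBIA encodes IκBα, which holds NF-κB in the cytoplasm. It spans 3.24 kb on chromosome 14, 35401513 to 35404749, with no other protein-coding gene in the window. Of its 13 vehicle and 28 P4 PR regions, 12 pairs overlapped. The strongest pair was within the gene, 0.644 kb from the start (35403505 to 35404291, −log10 q 204.0, fold 30.8, percentile 98.4 under P4; 35403606 to 35404286, −log10 q 95.5, percentile 96.0 under vehicle). Past the 3′ end, 4 further sites had a −log10 q above 70 under P4. They lay 26.9 kb past the end (201.8 under P4 and 84.7 under vehicle), 10.5 kb (131.2 and 58.8), 24.8 kb (98.1 and 9.67) and 3.06 kb (74.8 and 62.1). The other PR regions that reached the gene were a pair 2.18 kb inside it (35402372 to 35402745 under P4), at 2.28 in the vehicle list and 5.70 in the P4 list, and 1 found under P4 alone, 1.57 kb inside, at 3.78. A further P4 region (35400742 to 35401668, −log10 q 25.9) ran across the 3′ end, and its vehicle counterpart (6.46) stopped short of it. Upstream, the strongest PR region (35408114 to 35408510, −log10 q 41.8, percentile 90.6) was 3.55 kb before the start and was found under P4 alone.

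At the NFKBIA start PR and POLR3A regions coincided in all 4 lists. The PR regions there were weak, at a −log10 q of 2.99 in the vehicle list (35404529 to 35404722) and 7.76 in the P4 list (35404527 to 35405188). The POLR3A region of the vehicle list (35404434 to 35404893, −log10 q 14.1, fold 6.26, percentile 94.4) was the strongest POLR3A region at any of the 7 loci. Its P4 counterpart (35404504 to 35404780) had −log10 q of 6.62 and stood at percentile 89.0. Both POLR3A summits were within the gene, 60 and 58 bases from the start, while the PR summit under P4 was 101 bases before it. Within the gene POLR3A had 1 other region in each list, 0.951 kb from the start under vehicle (35403557 to 35403870, −log10 q 5.38) and 2.64 kb from it under P4 (35402000 to 35402190, −log10 q 3.87). Of the upstream windows of protein-coding genes, 15.6% overlapped a POLR3A region under vehicle and 14.4% under P4, and 6.90% and 21.6% a PR region. Among the members' 12 windows, that of NFKBIA was the only one with POLR3A. The third strongest POLR3A region of the 7 loci (35397011 to 35397895, −log10 q 6.75) was 3.76 kb past the 3′ end under P4, and the fifth (35401230 to 35401470, −log10 q 6.03) was 0.166 kb past it under vehicle.

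F3 encodes tissue factor, the cell-surface receptor that starts blood clotting, and spans chromosome 1, 94529173 to 94541759. It had 1 PR region under vehicle (94551671 to 94551943, −log10 q 3.59, percentile 28.2), the lowest percentile of the 7 strongest vehicle regions. The P4 region at this place (94551641 to 94551971) had −log10 q of 26.8, fold 7.68 and percentile 86.5, with its summit 10.1 kb upstream in LOC124904223. A neighbouring P4 region (94550753 to 94551315, −log10 q 18.6, percentile 82.3) had no vehicle counterpart. The other 2 P4 regions had −log10 q of 2.12 and 2.97, and the latter lay within ABCD3. No PR region overlapped F3 itself. POLR3A had 2 regions, both under P4 alone, at 1.80 within the gene and 3.75 within ABCD3.

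The sites were then compared between treatments over all 7 loci. Of the 30 vehicle PR regions, 27 or 90% (95% Wilson interval 74.4 to 96.5) overlapped a P4 region, and of the 65 P4 regions 27 or 41.5% (30.4 to 53.7) overlapped a vehicle region. Over the whole lists the shares were 75.7% and 25.8%. The first interval includes the share of the whole list and the second lies above it, but the intervals cover counting error over regions only, and regions of 1 locus are not independent. Across the 27 pairs the summits were a median of 20 bp apart, and 20 of them were within 50 bp. The shared P4 regions stood at a median percentile of 91.7 of the P4 list and those found under P4 alone at 38.6, against 85.2 and 39.7 over the whole list. Of the 16 P4 regions above percentile 90, 15 were shared, and the exception was the NFKBIA region 3.55 kb upstream. Of all P4 regions above percentile 90, 95.6% were shared.

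**Figure D4:**
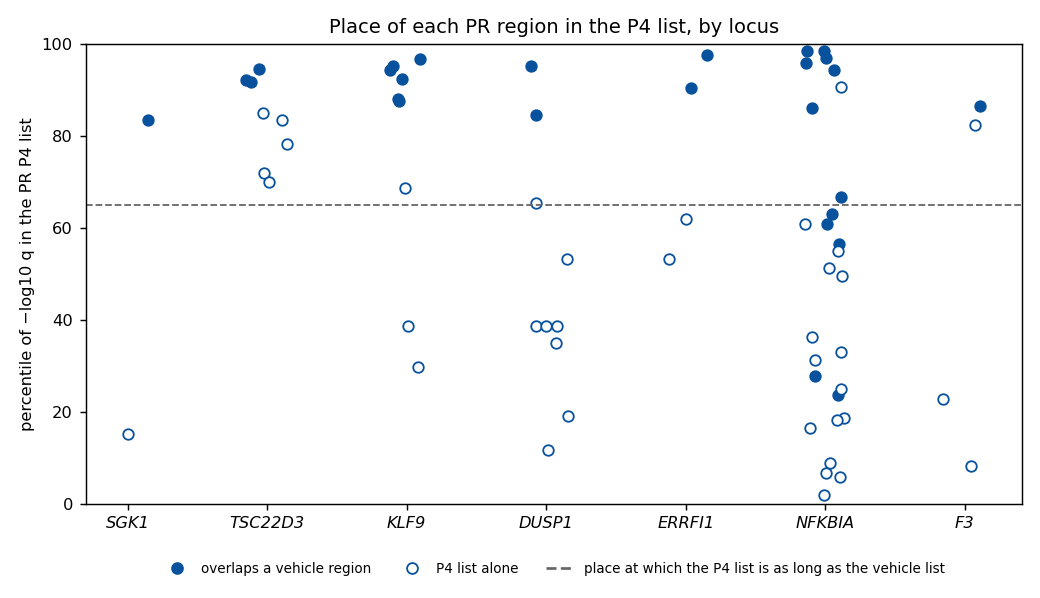
Percentile of −log10 q in the PR P4 list (vertical axis) for each PR region of that list, by gene; filled points overlap a vehicle region, open points do not, and sideways spread only separates points. The dashed line marks the place at which the P4 list is as long as the vehicle list. Filled points hold the highest place at each of the 7 genes.

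The longer P4 list bears on these counts. Cut to the length of the vehicle list by −log10 q, the PR P4 list kept 31 of the 65 regions, against 30 under vehicle. Of the 7 loci, 4 then had more regions under P4, 2 had as many and 1 had fewer. The locus with fewer was NFKBIA, with 13 under vehicle and 8 under P4. The matching shares of all protein-coding genes were not computed for the cut lists. Of the 31, 9 had no vehicle counterpart, and this was so for 44.1% of all 38933 regions of the cut P4 list. The 9 were 5 at TSC22D3 and 1 each at KLF9, DUSP1, NFKBIA and F3. By rank, counted from the top of each list, 12 of the 27 pairs stood higher under P4 and 15 lower, while 38.7% of the 29828 overlapping pairs of the whole lists stood higher under P4. By percentile, which counts from the bottom of lists of unequal length, 26 of the 27 stood higher under P4, as did 88.8% of all pairs. The lists differ in length, so neither count shows a change at a site.

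POLR3A at the 7 loci was compared in the same way. Of the 7 genes, 4 had a POLR3A region within 50 kb under vehicle and 4 under P4, while 68.7% and 71.9% of all protein-coding genes had one. KLF9, DUSP1 and NFKBIA were in both sets, ERRFI1 under vehicle alone and F3 under P4 alone. More POLR3A regions under P4 were found at 3 of the 7 loci, as at 51.3% of all genes, and fewer at 1, as at 16.2%. At equal list length 2 loci had more POLR3A regions under P4, 4 had as many and 1 had fewer. The matching shares of all genes were not computed for the cut POLR3A lists. Of the 26 P4 regions, 5 or 19.2% (8.51 to 37.9) overlapped a vehicle region, and of the 14 vehicle regions 5 or 35.7% (16.3 to 61.2) overlapped a P4 region, against 25.8% and 42.0% over the lists. All 5 were at NFKBIA, and without it the shares were 0 of 9 and 0 of 6. At the 3 loci with POLR3A in both lists the strongest POLR3A regions of the treatments did not overlap, as was so for the genes outside the 27.1% where they did. No transfer RNA gene lies in any of the 7 windows.

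The antibodies were compared within each treatment. Under vehicle, 4 of the 14 POLR3A regions or 28.6% (11.7 to 54.6) overlapped a PR region, and under P4, 15 of 26 or 57.7% (38.9 to 74.5) did, against 32.3% and 50.5% over the whole lists. With the PR and POLR3A lists of a treatment cut to equal length, the shares were 3 of 14 or 21.4% under vehicle and 7 of 26 or 26.9% under P4. The matching shares over the cut lists were not computed, and those over the uncut lists are not their background. Seen from PR, 4 of the 30 vehicle regions or 13.3% (5.31 to 29.7) overlapped a POLR3A region, as did 14 of the 65 P4 regions or 21.5% (13.3 to 33.0), against 24.2% and 20.9%. Each of these intervals includes the share of the whole list. Under P4, the PR regions with POLR3A were 9 at NFKBIA, 4 at DUSP1 and 1 at F3. SGK1, TSC22D3, KLF9 and ERRFI1 had none in either treatment. The KLF9 and ERRFI1 windows still held some of the strongest PR regions, that of ERRFI1 within the span of PARK7.

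A wider list of 20 other genes that respond to glucocorticoids or progestins, and 12 housekeeping genes, were set beside the members. PR regions were near 19 of the 20 under vehicle and all 20 under P4, with a median of 10.8 per 100 kb under P4. Their strongest P4 region was above percentile 90 at 17 of the 20. The highest −log10 q values were at ZBTB16 (508.0), FKBP5 (492.9) and TIPARP (326.2). The first encodes a zinc-finger repressor, the second a co-chaperone of steroid receptors, and the third an enzyme that adds ADP-ribose to proteins. The gene without a vehicle region was TNFAIP3, an inhibitor of NF-κB signalling like NFKBIA, with 1 P4 region at −log10 q 9.72. Of the 12 housekeeping genes, 9 had PR regions under vehicle and 10 under P4, with a median of 15.6 per 100 kb under P4, and the strongest was above percentile 90 at 7 of those 10. GAPDH and PGK1 had no region in any list. The members' median, 4.92, was the lowest of the 3 lists, and the difference was not tested. POLR3A regions were near 15 and 14 of the 20 wider genes and near 9 and 8 of the 12 housekeeping genes, under vehicle and P4.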

How the data were processed

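The deposited values are 4 narrowPeak lists, 1 for each antibody and treatment. The submitters' processing notes name cutadapt, Bowtie2, MACS2 and the build hg38, with no versions. How the 3 replicates and the pooled input entered each list is not given in the sources used here. For each region, the ratio given as fold enrichment and the −log10 q are the authors' deposited values. The deposited score is 10 times −log10 q as a whole number and was not used further. They describe and rank regions within a list only. No counts are given, so the depth is unknown, and its part in the lengths of the lists was not tested. The highest q of any row was 0.0497. Ranks break ties in −log10 q by fold. Lists have no replicate values, so no test was made.

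Regions on chromosomes 1 to 22 and X were used, in 1-based coordinates. Gene spans came from RefSeq GRCh38.p14, leaving out rows listed after the first drop in start position on a chromosome. The table gives no exons. Strand and starts came from the promoter sequence table, in which all 7 genes matched by symbol. Regions overlapped when they shared at least 1 bp. A percentile is the mid-rank of −log10 q within a list. Overlap code was tested on simulated data against bedtools 2.31.1. Python 3.11.15, pandas 2.3.3 and scipy 1.17.1 were used.

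All 7 members are described. For each, the text names its strongest PR region of each list, regions over the gene or within 1 kb of a start, and the 5 strongest PR regions under P4 and POLR3A regions over all loci, and from the wider list the 3 genes with the highest PR −log10 q and those without a PR region. The members, lists and rules were chosen with earlier results of these data known. The alternatives tried were a minimum −log10 q of 5 or 10, lists of equal length, 10 or 100 kb of flank, summits in place of regions, a reciprocal overlap of 50% and rank by fold.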

Additional observations from a re-analysis of the deposited data

How the results depend on the processing

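Each list is a single value for 3 replicates, so no replicate could be left out. No paired analysis was possible because the replicates of a group share 1 list and the columns carry no replicate number. Bases under the summits were not read, since no genome was used, so the planned element search there is replaced by that of the windows before annotated starts. PR counts at the 7 loci were 30 under vehicle and 65 under P4. They were 19 and 40 at a −log10 q of at least 5, 15 and 26 at 10, 14 and 33 with 10 kb of flank, and 49 and 111 with 100 kb. At equal list length the P4 count was 31. POLR3A counts of 14 and 26 became 4 and 6 at a −log10 q of at least 5, 1 and 1 at 10, and 9 and 14 with 10 kb. The POLR3A P4 count was 18 at equal list length. Without NFKBIA, a setting added after the data had been seen, the counts were 17 and 37 for PR and 6 and 9 for POLR3A. More PR regions under P4 were found at 6 of the 7 loci with none fewer at both thresholds and with 10 kb, and at 4 with 1 fewer at equal length. The matching shares of all protein-coding genes were not computed for these settings.

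The share of PR P4 regions with a vehicle counterpart, 41.5%, was 57.7% at a −log10 q of at least 10 in both lists and 71.0% at equal length. At equal length 9 of the 31 regions had no counterpart, against 44.1% of all regions of the cut P4 list. Whole-list shares at the thresholds and with reciprocal overlap were not computed. The POLR3A share of 19.2% was 3.85% with reciprocal overlap and 0% at a −log10 q of at least 10 (1 region) or without NFKBIA. The P4 share of POLR3A regions with PR, 57.7%, was 33.3% at a −log10 q of at least 5, 100% at 10 (1 region), 26.9% at equal length and 23.1% with reciprocal overlap. The vehicle share, 28.6%, was 0% at a −log10 q of at least 10 (1 region). The thresholds and equal length leave fewer regions, and reciprocal overlap is a stricter rule. All 5 POLR3A P4 regions with a vehicle counterpart were at NFKBIA. The causes of these differences were not tested. The median percentile of the strongest PR regions under P4 was 95.1 by −log10 q and 95.7 by fold. Counts at single loci that were above 0 as reported gave 110 values under the alternatives. Of these, 50 were within 1.5 times the reported count, 50 were lower by more than that, 15 of them at 0, and 10 were higher.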
